A study of Drosophila melanogaster with 14 samples.

Results

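Dorsal γ Kenyon cells (γd) were compared with the mixed population of main and dorsal γ Kenyon cells (γm+d) in nuclear RNA of the fly brain. The γd group was 2 libraries from the split-GAL4 driver MB607B (activation domain line R19B03, DNA-binding domain line R39A11), and the γm+d group was 2 libraries from MB131B (R13F02 and R89B01), so 4 of the 14 libraries of the series entered the contrast. Each library was made from nuclei affinity-purified from about 400 heads of mixed-sex adults 2 to 5 days old, in a w-mutant isogenic background, and both groups carried the same reporter, a GFP-tagged UNC84 protein of the nuclear envelope placed under UAS control. Of 13931 genes in the table, 6397 had at least 10 TPM (a level scaled for transcript length and to the same total in every library) in at least 1 of the 4 libraries, and these were tested. MB131B labels dorsal γ cells as well as the main γ cells, so γd nuclei were part of both groups, and the comparison sets γd alone against γd plus γm. The study describes the γd part of MB131B expression as minor. The share of γd nuclei in the γm+d libraries was not measured here. Fold changes below are thus between driver lines and are not those of γd against γm alone.

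Kenyon cells are the intrinsic neurons of the mushroom body, the centre of olfactory learning in the insect brain. The γ class is born first, and its axons stay in the medial γ lobe of the adult. The main γ neurons receive mostly olfactory input in the main calyx, whereas γd neurons send dendrites to the ventral accessory calyx and receive visual input. Split-GAL4 restricts the reporter to cells in which the activation domain and the DNA-binding domain of GAL4 are both expressed.

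The γd libraries captured fewer genes. Genes above 0 TPM numbered 5632 and 7601 in γd replicates 1 and 2, against 8836 and 10366 in the γm+d replicates, and 6534 to 11359 in the 10 α′/β′ and α/β libraries. The study counted fewer labelled Kenyon cells for MB607B than for MB131B, and the fewest for the α/βp driver. The part of cell number in these gene counts was not tested. Replicates agreed less in γd (Pearson's r across genes of log2(TPM + 1) 0.831) than in γm+d (0.923), and genes are not independent replicates. TPM keep no record of depth, and the read numbers that the study lists were not used here. The lowest level that each library could detect was thus not estimated, and a gene listed at 0 in γd is not shown to be silent.

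Both groups carried the labelled cell type. All 12 Kenyon cell and neuron markers were above 0 in the 4 libraries, and their summed level was 13084 to 13799 TPM in γd and 13852 to 14771 TPM in γm+d. The 6 γ class markers summed to 4979 and 5310 TPM in γd and to 5475 and 4454 TPM in γm+d, against 1434 to 2826 TPM in the other 10 libraries. None of these 18 genes was called, including her (1887 and 1231 TPM in γd, 1494 and 1289 TPM in γm+d) and Imp (1422 and 2145 TPM in γd, 1712 and 937 TPM in γm+d). Markers of glia were low, with a sum over 10 genes of 49.2 and 145 TPM in γd and 120.2 and 170.3 TPM in γm+d, and repo, the defining transcription factor of glia, at 0 and 0.11 TPM in γd and 0.40 and 2.18 TPM in γm+d. No marker of glia, fat body, peptidergic and clock neurons, or GABAergic, glutamatergic and monoaminergic neurons passed the test. Called were 2 muscle markers, 1 photoreceptor marker and, among α/β and α′/β′ class markers, 5-HT1A (lower), all described below. The medians of the log2 fold change were −0.48 for the Kenyon cell and neuron markers, −0.13 for the γ class markers and −0.32 for glia. They were 0.39 for fat body, −1.13 for the 3 tested peptidergic and clock neuron markers and 1.20 for the neurons of other transmitters. Over all tested genes the median was −0.27. In TPM the markers of other transmitters went the other way, with sums of 191 and 228 TPM in γd and 331 and 332 TPM in γm+d. Fat body markers summed to 1261 and 965 TPM in γd and 433 and 1340 TPM in γm+d.

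A total of 28 genes were higher in γd and 95 were lower, at an adjusted p under 0.05 and at least 2-fold in limma, which was fitted to quantile-normalized log2(TPM + 1) of all 14 libraries. These were 0.438% and 1.49% of the tested genes (1.92% in either direction). The 2 and 2 libraries did not overlap in any of the 123, but the same was so of 7.13% of all tested genes with γd higher and 47.4% with γd lower, which is the background for lack of overlap. Of the 95 lower genes, 59 were at 0 in a γd library, 40 of them in both, 18 in replicate 1 only and 1 in replicate 2 only. Among the 4582 genes above 0 in all 4 libraries, where the median log2 fold change was 0.01, 25 genes were higher (0.546%) and 36 were lower (0.786%). In bulk nuclei, fewer cells that express a gene and less RNA per nucleus cannot be told apart.

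These calls drew on the spread within all 7 driver lines and depended on single libraries. With the 4 γ libraries fitted alone, 1 gene was higher, CG5830, and 0 were lower in limma, although 231 higher and 439 lower genes had an unadjusted p under 0.05 and a 2-fold difference there (370 and 860 in the 14-library fit). Without γm+d replicate 2, the calls that remained were 1 of the 28 higher genes (CG5830) and 4 of the 95 lower genes (y, Mocs1, Cyp4p1 and CG34178). Without γm+d replicate 1, 7 higher and 27 lower calls remained, and without γd replicate 1, 8 and 36. Without γd replicate 2, 28 and 94 remained, while the totals reached 393 higher and 896 lower genes. The balance also moved with the scaling, since TPM without quantile normalization gave 32 higher and 342 lower genes, around a median log2 fold change of −1.24 in place of −0.27. Of the calls above, 15 of the 28 higher and 91 of the 95 lower ones were then kept, and the higher calls lost were those of CG33777, CG11892, CG8042, ltl, CG44085, dan, Octbeta3R, dpr3, Eip78C, Mf, Mpcp2, CG34324 and Adgf-A2. Quantile normalization raised low and middle values in γd, so fold changes below are relative to that scale and the TPM stand beside them. VGlut, for example, had 15.1 and 20.5 TPM in γd, against 19.6 and 15.1 TPM in γm+d, and yet a log2 fold change of 1.20 (adjusted p = 0.359).

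**Figure D1:**
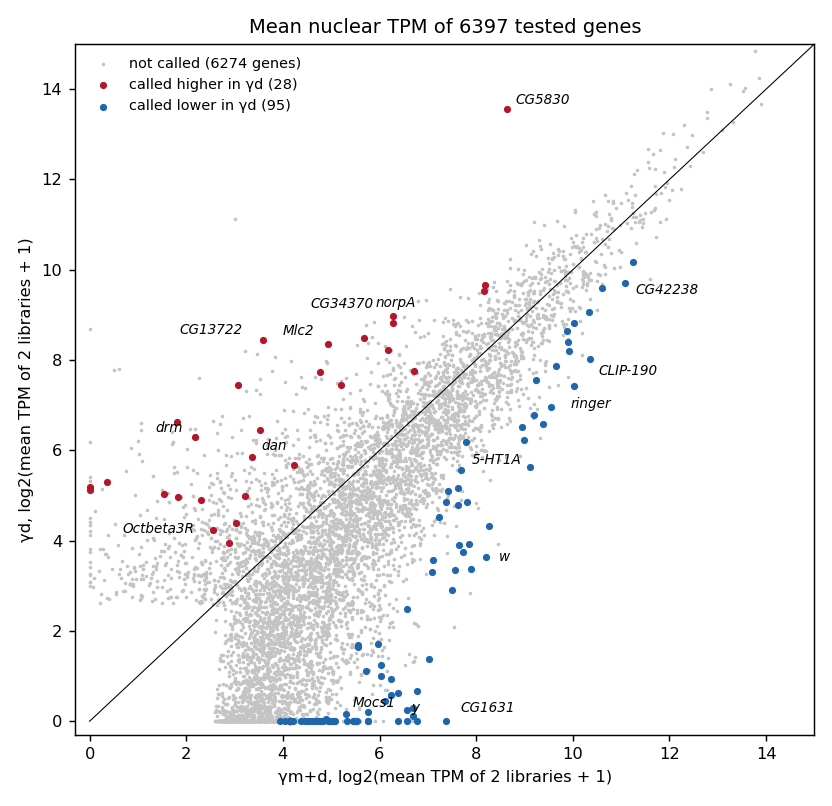
Mean TPM of the 6397 tested genes, with γd on the vertical and γm+d on the horizontal axis, both as log2(mean TPM of the 2 libraries + 1); red points are the 28 genes called higher in γd, blue points the 95 called lower, grey points those not called, and the line marks equal means. CG5830 is the red point with the highest mean in γd, and 40 of the blue points lie at 0 TPM in γd.

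The smallest p of the 6397 tested genes was that of CG5830 (FBgn0036556; BDGP6, chromosome 3L, 15992669 to 16004736, minus strand). It had 12985 and 11190 TPM in the γd libraries, against 345 and 445 TPM in the γm+d libraries. The groups lay far apart (log2 fold change 4.53, SE 0.19, adjusted p = 1.13e-07), and the call held in all 19 alternative settings, where the log2 fold change was 4.34 to 5.73. Most of the difference was in the transcript CG5830-RA, at 12263 and 9611 TPM in γd and 172 and 250.5 TPM in γm+d. The gene was not particular to γd within the mushroom body. In the other 10 libraries it ranged between 193 and 8722 TPM, and the α/βs, α/βc and α′/β′ap+m libraries (3061 and 3089.9 TPM in the last) stood between γd and γm+d while the α′/β′m and α/βp libraries stood low with γm+d.

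Genes of neuronal signalling fell on both sides. Among 14 tested receptors for dopamine, octopamine, tyramine and serotonin, 1 was higher in γd and 1 was lower, against 0.438% and 1.49% of all tested genes. The median log2 fold change of the list was −0.15, against −0.27 over all tested genes. Octbeta3R, a β-type octopamine receptor, had 19.2 and 16.7 TPM in γd and 2.25 and 7.42 TPM in γm+d (log2 fold change 3.02, SE 0.49, adjusted p = 0.0121). Both γ populations were low for this receptor, since the other 10 libraries held 24.3 to 289 TPM, and without quantile normalization the call was lost (log2 fold change 1.86). 5-HT1A, a serotonin receptor, ran the other way with 36.7 and 56.6 TPM in γd and 189 and 219 TPM in γm+d (log2 fold change −1.48, SE 0.22, adjusted p = 0.0121). The γd libraries were below all other 12, which reached 1049.6 TPM in α/βs. DopEcR, a receptor for dopamine and ecdysteroids and the most abundant of the list, had 9274 and 7397 TPM in γd and 4801 and 2649.5 TPM in γm+d, without overlap but short of the threshold (log2 fold change 0.63, adjusted p = 0.121).

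norpA encodes a phospholipase C that acts in phototransduction. It had 505 and 399 TPM in γd and 81.5 and 72.6 TPM in γm+d, and the groups were well apart (log2 fold change 2.57, SE 0.38, adjusted p = 0.0119). The γm+d libraries were the low ones of the series, since the other 10 libraries held 234 to 829 TPM. The transcripts did not move together: norpA-RC had 368 and 188 TPM in γd and 25.1 and 24.0 TPM in γm+d, whereas norpA-RD had 7.17 and 0 TPM in γd and 31.9 and 33.9 TPM in γm+d. norpA was the only call among 9 tested photoreceptor markers, against 0.438% of all tested genes called higher. The median log2 fold change of the list was 0.25 over these 9, against −0.27 over all tested genes, and 1.29 over the 6 that were above 0 in all 4 libraries, against 0.01 over all such genes. Of 15 in the table, 7 were at 0 in γd replicate 1 and 2 in γd replicate 2, Rh3 and inaC were at 0 in both, and the list summed to 956 and 941 TPM in γd and 481 and 1131 TPM in γm+d, of which ninaE, the main rhodopsin gene, made up 447 and 436 TPM in γd and 341 and 912 TPM in γm+d. The part of photoreceptor nuclei in these values was not tested. rdgC, a calcium-dependent phosphatase known for acting on rhodopsin and chosen after its values were seen, was lower at 349 and 449.7 TPM in γd and 923 and 969.6 TPM in γm+d (log2 fold change −1.17, adjusted p = 0.0367).

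No other receptor or channel group held a call. This was so for 12 tested acetylcholine receptor genes, 13 GABA and glutamate receptor genes, 19 neuropeptide and hormone receptor genes, 33 voltage-gated and leak channel genes and 19 genes of cAMP signalling, which carries the learning signal in Kenyon cells. At an unadjusted p under 0.05 and 2-fold, limma gave 370 higher and 860 lower genes among all 6397 tested. The counts were 1 higher and 2 lower among the acetylcholine receptors and 0 and 0 among GABA and glutamate receptors. They were 0 and 3 among neuropeptide and hormone receptors, 1 and 2 among channels, and 2 and 0 in cAMP signalling. The median log2 fold changes of these groups were −0.26, −0.16, −0.31, −0.07 and 0.22 in that order, against −0.27 over all tested genes. Abundant members were nAChRbeta1 (15734 and 16332 TPM in γd, 14134 and 9290.3 TPM in γm+d), the potassium channel gene Sh (15251 and 18064 TPM in γd, 15209 and 9109.9 TPM in γm+d), nAChRalpha6 (10142 and 9755 TPM in γd, 13762 and 6684 TPM in γm+d) and Rdl, the GABA-A receptor subunit gene (9329.5 and 9509.7 TPM in γd, 6415 and 3627 TPM in γm+d). In TPM the groups overlapped for nAChRalpha6 and did not for the others, where γd was higher, but none passed the test on the normalized scale (adjusted p = 0.643 for nAChRbeta1, 0.860 for Sh, 0.353 for nAChRalpha6 and 0.121 for Rdl). Among the 35 tested active zone and synaptic vesicle genes none passed (1 higher and 2 lower at an unadjusted p under 0.05 and 2-fold). Among 23 tested memory genes 1 was called lower, the small gene cer, described below, against 1.49% of all tested genes. The medians of these lists were 0.13 and 0.29.

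**Figure D2:**
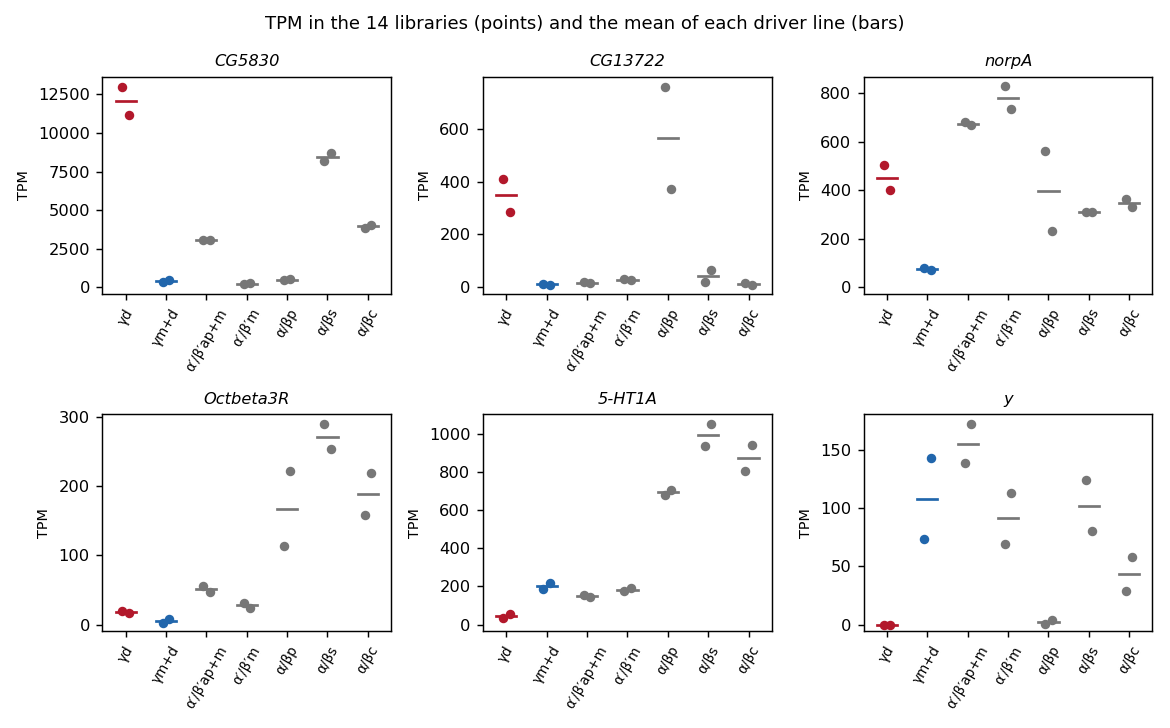
TPM of 6 genes in the 14 libraries, by driver line along the horizontal axis (2 libraries each, n = 2), with points for libraries, bars for the mean of a line, γd in red, γm+d in blue and the others in grey. CG5830 is highest in γd but also high in α/βs, norpA is lowest in γm+d, 5-HT1A is lowest in γd, and y is at 0 in γd and near 0 in α/βp.

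Transcription factor genes with a call were few. drm, a zinc finger gene of the odd-skipped family (chromosome 2L, 3539247 to 3548423, plus strand), had 82.0 and 73.2 TPM in γd and 1.71 and 5.32 TPM in γm+d (log2 fold change 4.82, SE 0.95, adjusted p = 0.0307). dan, which encodes a nuclear protein with a pipsqueak-type DNA-binding domain (chromosome 3R, 25184383 to 25192806, plus strand), had 55.2 and 58.4 TPM in γd and 6.82 and 11.8 TPM in γm+d (log2 fold change 3.28, SE 0.75, adjusted p = 0.0491). Both genes were higher in each γd library than anywhere else in the series, with at most 49.0 TPM of drm and 4.33 TPM of dan in the 10 α′/β′ and α/β libraries. Levels of dan thus placed the γm+d libraries second, above every α′/β′ and α/β library. The call for dan was lost without quantile normalization, where its log2 fold change was 2.53.

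Eip78C, an ecdysone-induced nuclear receptor gene, was the 1 call among 22 tested temporal identity and ecdysone response genes (list median 0.29). Of all tested genes, 0.438% were called higher. Eip78C had 11.1 and 17.7 TPM in γd and 5.04 and 7.82 TPM in γm+d, a ratio of mean TPM of 2.24, while the fitted log2 fold change was 2.41 (SE 0.54, adjusted p = 0.0467). The call was lost without quantile normalization, at a log2 fold change of 1.04. Both γm+d libraries were below the other 10 libraries, which held 13.1 to 64.7 TPM of Eip78C. Among 22 tested homeodomain genes, whose median was 0.53, zfh2 was the only call and was lower, against 1.49% of all tested genes called lower. zfh2 had 195 and 388 TPM in γd and 796 and 1142 TPM in γm+d (log2 fold change −1.65, SE 0.38, adjusted p = 0.0479). γd was here within the range of the α′/β′ and α/β libraries, 29.3 to 399 TPM, and γm+d stood above all of them. The exons of zfh2 share 2325 bases with those of Tdg on the opposite strand, and reads of the 2 genes may not be separable. sr, a zinc finger gene of the EGR family that responds to neuronal activity, had 487 and 159.6 TPM in γd and 52.6 and 37.4 TPM in γm+d and missed the threshold (log2 fold change 2.78, SE 0.66, adjusted p = 0.0563).

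Cell surface genes that pattern synaptic partners differed in single members. Of 22 tested Dpr and DIP genes, immunoglobulin proteins of the neuronal surface that bind each other, dpr3 was higher and dpr21 was lower, around a list median of −0.20. Over all tested genes, 0.438% were called higher and 1.49% lower. dpr21 (chromosome 2R, 3066499 to 3191011, plus strand) had 498 and 410.4 TPM in γd and 1029.6 and 1048 TPM in γm+d (log2 fold change −1.13, SE 0.21, adjusted p = 0.0209). dpr3 had 22.4 and 17.5 TPM in γd and 6.17 and 8.19 TPM in γm+d (log2 fold change 2.51, SE 0.55, adjusted p = 0.0444). Neither pair of groups overlapped, and the call of dpr3, at these low levels, was lost without quantile normalization (log2 fold change 1.36). The γd replicates of dpr3 agreed in the gene total only, with dpr3-RB at 0 and 14.4 TPM and dpr3-RC at 22.4 and 0 TPM. Of 18 tested Beat and Side genes, which also encode immunoglobulin proteins, beat-Vb alone was called, at 0 and 0.32 TPM in γd and 30.9 and 75.2 TPM in γm+d, and the list median was −0.80, or −0.16 over the 13 members above 0 in all 4 libraries.

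None of 62 tested genes on the list of other adhesion and guidance molecules was called by limma, and the list median was −0.08. At an unadjusted p under 0.05 and a 2-fold difference 8 were higher and 3 lower, against 370 and 860 of all 6397 tested genes. The highest of the list was Fas1, with 16560 and 16168 TPM in γd and 8999.9 and 5866 TPM in γm+d (log2 fold change 0.53, SE 0.16, adjusted p = 0.0926). Its γd values were above those of all other 12 libraries, of which the highest was 13015 TPM. Fas2, whose protein outlines the lobes of the mushroom body, did not overlap either and also missed the threshold (log2 fold change 1.34, SE 0.40, adjusted p = 0.0926). Its transcript Fas2-RC had 522 and 785 TPM in γd and 280.4 and 170.3 TPM in γm+d.

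Some genes of the contractile apparatus were higher in γd than in γm+d. Of 10 muscle markers in the table, 9 were tested and 2 were called, both higher, against 0.438% of all tested genes. The median log2 fold change of the 9 was 2.28, against −0.27 over all tested genes. At an unadjusted p under 0.05 and 2-fold limma gave 5 higher and 0 lower members, against 370 and 860 of all 6397 tested genes. The libraries did not overlap in 5 members with γd higher and in 2 with γd lower, against 7.13% and 47.4% of all tested genes. Mlc2, a regulatory light chain of muscle myosin (chromosome 3R, 30171438 to 30174551, minus strand), had 455 and 197 TPM in γd and 32.3 and 26.7 TPM in γm+d (log2 fold change 3.49, SE 0.57, adjusted p = 0.0121). wupA, troponin I (chromosome X, 18105568 to 18116922, minus strand), had 60.4 and 112 TPM in γd and 6.15 and 14.8 TPM in γm+d (log2 fold change 3.61, SE 0.71, adjusted p = 0.0304). Neither pair of groups overlapped. Of the other members, Mhc (49.0 and 24.2 TPM in γd, 8.54 and 16.6 TPM in γm+d, adjusted p = 0.0671), Act57B and sls were without overlap but not called, up and bt were lower in both γd libraries without a call, Tm1 had 1449 and 1002 TPM in γd and 1175 and 1109.5 TPM in γm+d, and Act88F was at 0 in the 4 libraries. Mf, a myofilament gene outside the list that was chosen after its values were seen, had 600.3 and 118 TPM in γd and 45.7 and 55.4 TPM in γm+d (log2 fold change 2.47, adjusted p = 0.0467). The whole list summed to 2066 and 1427 TPM in γd and 1298 and 1275 TPM in γm+d, and to 1996 and 2119 TPM in α/βp. In the other 10 libraries Mlc2 had 18.9 to 174 TPM, below both γd libraries. wupA had 16.6 to 91.9 TPM there, above both γm+d libraries. Mhc and Mf were not particular to γd, since they reached 182 and 348 TPM in α/βp. Whether muscle nuclei had a part in these values was not tested.

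The remaining named genes that were higher in γd mostly carry only a CG number. CG13722 (chromosome 3L, 4485159 to 4490963, minus strand) had 411 and 287 TPM in γd and 12.2 and 9.74 TPM in γm+d (log2 fold change 5.16, SE 0.82, adjusted p = 0.0121), and α/βp, at 758 and 371 TPM, was high with γd. CG34370 (chromosome 2R, 21987068 to 22039559, minus strand) had 449 and 562 TPM in γd and 84.0 and 69.7 TPM in γm+d (log2 fold change 2.74, SE 0.38, adjusted p = 0.00807). The α′/β′ libraries held 350 to 427 TPM of CG34370, and the α/β libraries 43.1 to 77.2 TPM. For CG34267 the γd values were 31.1 and 29.5 TPM and those of γm+d 3.73 and 1.41 TPM, while the other 10 libraries reached 0.74 TPM at most. Outside the γ class, CG34267 was thus at or near 0, CG13722 was high in α/βp and CG34370 was high in α′/β′.

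CG33777, CG11892, CG8042, ltl, CG18675 and CG44085 made up the rest of the 15 with the largest fold changes, at log2 fold changes of 2.81 to 5.08, and of these 6 calls that of CG18675 alone held without quantile normalization. Their replicates in γd often differed, as in CG11892 (309 and 36.8 TPM in γd, 0.79 and 13.9 TPM in γm+d) and ltl (9.87 and 53.4 TPM in γd, 1.30 and 2.48 TPM in γm+d). For CG44085 the main transcript differed between the γd replicates, with CG44085-RC at 21.9 and 0 TPM and CG44085-RH at 0 and 23.2 TPM. CG18675 shares 777 exon bases on the same strand with tipE, so their reads may not be separable. Called genes with a 0 in γm+d were CG30440 (62.1 and 14.4 TPM in γd, 0 and 0.58 TPM in γm+d), CG34324 (0.48 and 67.3 TPM in γd, 0 in both γm+d libraries) and Adgf-A2, an adenosine deaminase gene (0.26 and 70.6 TPM in γd, 0 in both γm+d libraries). For CG34324 and Adgf-A2 γd replicate 2 alone of the 4 libraries held more than 1 TPM. Without that library the log2 fold change of Adgf-A2 was 3.14 in place of 4.78, although the γd value left was 0.26 TPM against 0. A difference of that size was thus present on the normalized scale only and not in TPM. Outside the rule, and chosen after their values were seen, app (a palmitoyltransferase gene; 48.6 and 52.0 TPM in γd, 14.8 and 21.0 TPM in γm+d) and sina (a ubiquitin ligase gene; 228 and 117 TPM in γd, 36.1 and 35.5 TPM in γm+d) were also higher. For app the γm+d libraries were the low ones of the series, since the other 10 libraries held 22.9 to 628 TPM.

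**Figure D3:**
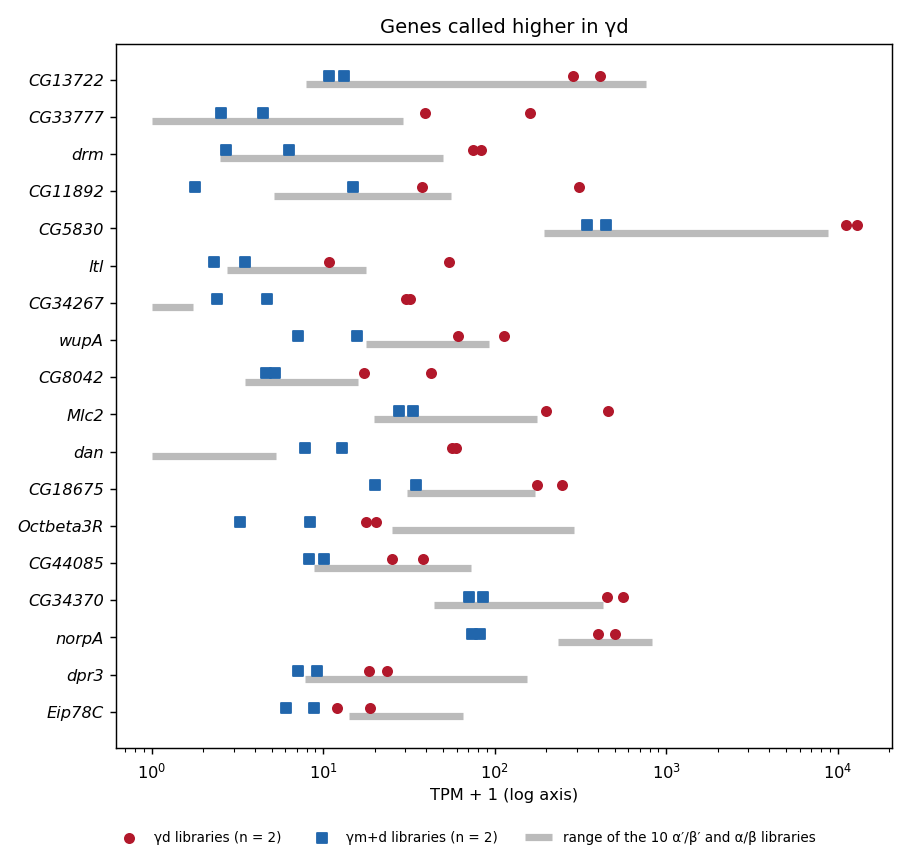
TPM + 1 on a log axis for 18 genes called higher in γd, in the γd libraries (red points, n = 2) and the γm+d libraries (blue squares, n = 2), with grey bars for the range of the 10 α′/β′ and α/β libraries. In every row both red points lie to the right of both blue squares. For wupA, Octbeta3R, norpA and Eip78C the grey bar lies to the right of the blue squares, narrowly so for wupA.

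On the lower side were genes of the microtubule cytoskeleton. ringer, of the family of tubulin polymerization-promoting proteins (chromosome 3L, 16354746 to 16359428, minus strand), had 173 and 168 TPM in γd and 806 and 1275 TPM in γm+d (log2 fold change −2.33, SE 0.42, adjusted p = 0.0197). CLIP-190, a microtubule plus-end protein (chromosome 2L, 17384700 to 17409698, plus strand), had 252 and 269 TPM in γd and 1304 and 1299 TPM in γm+d (log2 fold change −2.14, SE 0.34, adjusted p = 0.0121). For both genes the γd libraries were the lowest 2 of the 14, since the α′/β′ and α/β libraries held at least 340.3 TPM of ringer and 381 TPM of CLIP-190. kat-60L1, a katanin gene whose product severs microtubules, had 0 and 4.27 TPM in γd and 29.8 and 62.6 TPM in γm+d (log2 fold change −3.67, adjusted p = 0.0444). CLIP-190 and kat-60L1 were outside the rule and were picked with their values known, and no list of microtubule genes was tested.

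Other lower genes above 0 in all 4 libraries had varied functions. Myo81F, a myosin gene (chromosome 3R, 567076 to 2532932, plus strand), had 2.73 and 25.7 TPM in γd and 209 and 249.7 TPM in γm+d (log2 fold change −3.03, SE 0.63, adjusted p = 0.0367), and γm+d was the outlying group, since the other 10 libraries held 6.33 to 44.2 TPM. CG32432 had 78.8 and 169 TPM in γd and 609 and 889 TPM in γm+d (log2 fold change −2.30, SE 0.38, adjusted p = 0.0121). Gr47a, of the gustatory receptor family, had 72.2 and 118 TPM in γd and 375 and 966 TPM in γm+d (log2 fold change −2.31, SE 0.48, adjusted p = 0.0367). In both genes the groups stood apart although the γm+d replicates themselves differed. CG42238, which was outside the rule and picked with its values known, had replicates that lay close together, at 822 and 842 TPM in γd and 2318 and 1997 TPM in γm+d (log2 fold change −1.38, SE 0.18, adjusted p = 0.00505).

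Named genes with large fold changes were often near 0 in γd replicate 1 alone. CG6154 had 0.58 and 18.1 TPM in γd and 235 and 241 TPM in γm+d, and CG32655, CG30423, CG17109, the checkpoint gene Hus1-like and the endoplasmic reticulum gene Reep1 had the same form, with 0.37 to 4.32 TPM in γd replicate 1 and 12.7 to 37.2 TPM in γd replicate 2. CG42288, CG3610, isoQC, a glutaminyl cyclase gene, and the kinase gene KP78b completed the 15, at log2 fold changes of −2.24 to −3.13. KP78b shares 4988 exon bases with its neighbour KP78a, so its values are uncertain. Picked with their values known, CaMKI, a calcium/calmodulin-dependent kinase gene (799.8 and 1498 TPM in γd, 2475 and 2369 TPM in γm+d, log2 fold change −1.25), PIP4K, a phosphoinositide kinase gene (229 and 443 TPM in γd, 941 and 971 TPM in γm+d, log2 fold change −1.41), and Mp, which encodes a collagen (159 and 213 TPM in γd, 511 and 700.4 TPM in γm+d, log2 fold change −1.40), were lower as well, and none of the 3 was near 0.

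**Figure D4:**
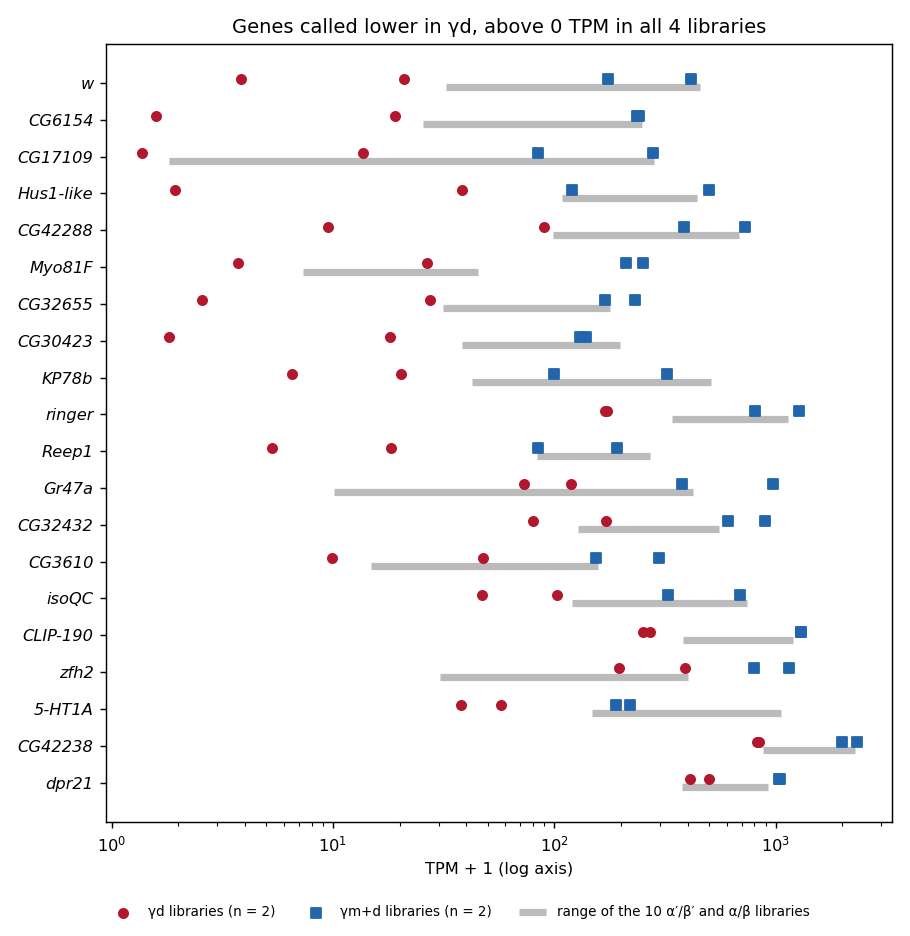
TPM + 1 on a log axis for 20 genes called lower in γd and above 0 TPM in all 4 libraries, in the γd libraries (red points, n = 2) and the γm+d libraries (blue squares, n = 2), with grey bars for the range of the 10 α′/β′ and α/β libraries. The red points of ringer, CLIP-190 and CG42238 lie close together and below the grey bar, whereas those of CG6154 or CG30423 lie far apart.

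Both pigmentation genes that the rule named, y and w, were lower in γd. y (yellow, a gene of cuticle melanin; chromosome X, 356509 to 361245, plus strand) was at 0 in both γd libraries and had 73.5 and 143 TPM in γm+d (adjusted p = 8.1e-05). w (white, a transporter of eye pigment precursors; chromosome X, 2790599 to 2796466, minus strand) had 20.0 and 2.85 TPM in γd and 173 and 414 TPM in γm+d (log2 fold change −3.75, SE 0.62, adjusted p = 0.0121). Both genes were also low in α/βp, at 0.12 and 4.28 TPM of y and 31.4 and 84.7 TPM of w, and α/βp replicate 1 was the library with the fewest genes above 0 after γd replicate 1. Split-GAL4 and reporter insertions commonly carry copies of w or y as markers, and RNA from an inserted copy cannot be told apart from that of the native gene in these values. Mocs1, a gene of molybdenum cofactor synthesis (chromosome 3L, 11070526 to 11073348, plus strand), had the same form, at 0 in both γd libraries, 78.5 and 109.9 TPM in γm+d, and 2.20 and 33.5 TPM in α/βp (adjusted p = 8.1e-05).

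Zeros in γd were common at moderate levels and rare at high ones. Of 4170 genes with at least 10 TPM in both γm+d libraries, 12.5% were at 0 in γd replicate 1, 2.95% in replicate 2 and 2.01% (84 genes) in both. Of the 2025 genes with at least 50 TPM in both γm+d libraries, 5 were at 0 in both γd libraries (0.247%), and of the 1349 with at least 100 TPM it was 1, CG1631. None of the 319 genes with at least 500 TPM was at 0 in either. α/βp replicate 1 showed a like share at the lowest level, 9.02%, and the remaining 9 libraries outside γ had 0.767% or less. The genes at 0 in both γd libraries were short, with a median longest transcript of 857 bases against 3070 bases for those above 0 in both, and the 59 called genes with a 0 had a median of 774 bases, against 2553 bases for the 36 lower genes without one.

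**Figure D5:**
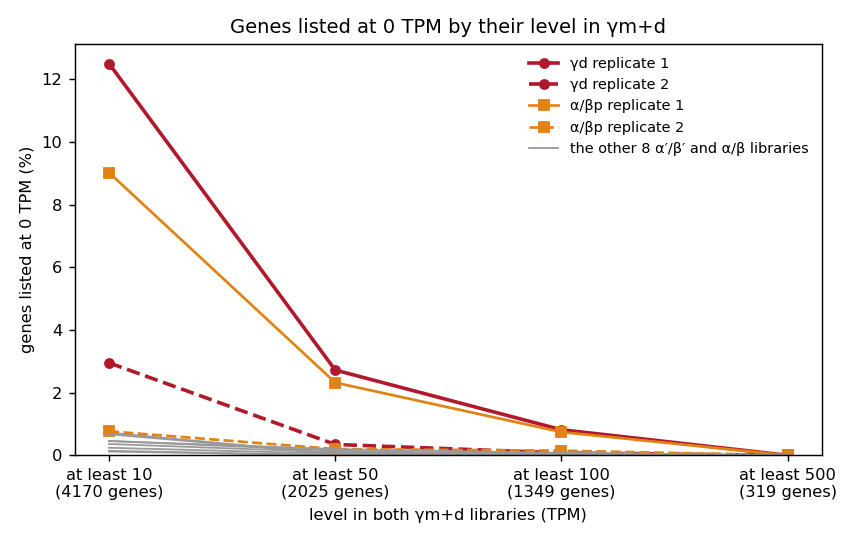
Share of genes listed at 0 TPM (vertical axis, percent) among genes with at least 10, 50, 100 and 500 TPM in both γm+d libraries (horizontal axis), for γd replicates 1 and 2 (red, solid and dashed), α/βp replicates 1 and 2 (orange, solid and dashed) and the other 8 libraries (grey). γd replicate 1 starts at 12.5% and γd replicate 2 at 2.95%, and both reach 0 at 500 TPM.

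The called genes with the largest fold changes at 0 were CG1631 (0 in both γd libraries, 113 and 217 TPM in γm+d), y, Mocs1, CG17490 (0 in both, 22.7 and 141 TPM), tut, an RNA-binding protein gene (0 and 0.17 TPM in γd, 118 and 87.0 TPM in γm+d), CG40635 (0 in both, 52.8 and 53.7 TPM), CG43088 (0 in both, 27.6 and 78.7 TPM) and CG14491 (0 and 0.44 TPM in γd, 85.7 and 119 TPM in γm+d). They differed in the rest of the series. CG1631 and tut reached only 29.1 and 22.2 TPM in the other 10 libraries, so γm+d was high, whereas CG43088 and CG14491 reached 90.2 and 163 TPM there. cer, which encodes an inhibitor of cysteine proteases linked to memory, was at 0 and 1.80 TPM in γd and at 85.0 and 63.8 TPM in γm+d (adjusted p = 0.0385), with 13.8 to 177 TPM in the other 10 libraries. CG17490 shares 2313 exon bases with a long noncoding RNA gene and cer shares 212 bases with an antisense RNA gene, so their levels are uncertain to that extent.

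The list of respiratory chain genes held no call, although UQCR-11L (0 and 3.19 TPM in γd, 92.0 and 165.7 TPM in γm+d) and ND-MNLL (0 in both γd libraries, 10.5 and 49.0 TPM in γm+d), genes named for respiratory chain subunits that are not on it and were chosen after their values were seen, were called lower. Of 35 list members tested, 0 passed the threshold in limma. At an unadjusted p under 0.05 and 2-fold, 2 were higher and 7 lower, against 370 and 860 of all 6397 tested genes. Without overlap and lower in γd were 19 members (against 47.4% of all tested genes), and the median log2 fold change was −1.04 against −0.27 over all tested genes. Of the 39 in the table, 17 were at 0 in γd replicate 1 and 3 in γd replicate 2, against 2 and 0 in the γm+d replicates. Over the 20 members above 0 in all 4 libraries the median was −0.57, against 0.01 for all such genes.

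The other lists held no call either. They covered 24 tested RNA-binding and splicing regulators, 16 neuropeptide genes, 14 activity-regulated genes, 10 heat shock and stress genes, 7 circadian clock genes and 2 innexins. Their medians of the log2 fold change were 0.21, −0.15, 0.16, 0.21, 0.73 and −0.73 in that order, against −0.27 over all tested genes. At an unadjusted p under 0.05 and 2-fold in limma, they gave 2 higher and 1 lower RNA-binding genes, 2 and 3 neuropeptide genes, 3 and 0 activity-regulated genes, 2 and 0 stress genes and 1 and 0 clock genes. The same cut gave 370 higher and 860 lower genes among all 6397 tested. mub, an RNA-binding protein gene and the most abundant of these lists, had 8213 and 9236 TPM in γd and 9847 and 7619 TPM in γm+d, and the groups overlapped.

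Histone genes gave 9 of the 95 lower calls, and these were identical copies of His2A at 0 in both γd libraries and 7.20 and 26.2 TPM in γm+d. Counted once, they left 87 lower genes. In γd the whole His2A level stood on 1 other copy, and the 20 His2A genes together summed to 701 and 127 TPM in γd and 64.8 and 236 TPM in γm+d. The family totals overlapped, and the values of single near-identical copies are uncertain.

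Of the 28 higher genes, 14 lay on chromosome arm 3L, which held 20.2% of the tested genes, whereas 17 of the 95 lower genes did (17.9%). This arm was singled out after the values were seen and no test was made. The 28 included CG5830, CG13722, CG33777, CG18675, CG34267, CG8042, ltl, Eip78C, Adgf-A2, app, sina and RhoGAP68F on this arm.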

How the data were processed

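Before deposition the authors cut 5 nucleotides from reads (seqtk), used kallisto to estimate BDGP6 transcript levels (Ensembl release 91), removed spike-in, reporter and ribosomal entries and deposited rescaled TPM. The values are TPM, not counts, and the read numbers that the study lists for its libraries were not used here. Nothing used here states that the libraries kept strand.

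Tested genes had 10 TPM or more in any of the 4 γ libraries, and the test was made with limma 3.58.1 in R 4.3.3, on log2(TPM + 1) quantile-normalized over all genes of 14 libraries, with a mean per driver line and a variance trend. A call needed a Benjamini-Hochberg adjusted p under 0.05 and at least 2-fold. Fold changes are on the normalized log2(TPM + 1) scale, where the pseudocount understates changes of low genes, and none is given where both γd libraries were at 0. The study's methods use voom on estimated counts, which were not used here. On simulated data for this contrast (6420 genes), 57.5% of 200 genes changed by 3 on the log2 scale were recovered, with 6 false calls. Apart from these 200 genes, all simulated libraries had the same gene means and the same spread per gene. The fewer genes above 0 and the less alike replicates of γd were not simulated, so these figures do not give the error of the calls here.

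The genes given by name were, in each direction, the 15 called genes with the largest fold change above 0 TPM in all 4 libraries and without overlap, the 8 with the largest at 0 in any, every called list member other than respiratory chain genes, and up to 4 abundant members of each list. The lists described are given by their counts and their median over tested members. The members and lists were chosen with earlier results of these data known. Coordinates and exon overlaps came from an Ensembl release 115 annotation of BDGP6. Replicates were independent preparations according to the study's methods, and with 2 per group p-values rest on the spread pooled over 7 driver lines.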

Additional observations from a re-analysis of the deposited data

How the results depend on the processing

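Against 28 higher and 95 lower genes, a pseudocount of 0.1 gave 18 higher genes, median-ratio scaling 52 and 160 (median log2 fold change −0.56), TPM without normalization 342 lower, no filter 62 lower, genes above 0 in all 4 libraries 31 lower (59 of the 95 were then not tested), limma arrayWeights 2 and 7, and the 4 γ libraries alone 1 and 0. Chosen after seeing the data, the number of genes above 0 as a covariate gave 5 and 15, leaving out the α/βp libraries 67 and 218, and leaving out γd replicate 1 with α/βp replicate 1 110 and 262. Leaving out each γ library in turn gave 1 to 393 higher and 4 to 896 lower genes, the lone library being assumed to vary like the others. The cause of these shifts was not tested. Of 72 genes whose fold change was followed, the 65 called ones kept their sign under every alternative in which they were tested, and CG5830 alone was called in all. Of the uncalled, VGlut reversed, to −0.18 with the covariate.

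The replicate numbers were not used to pair the samples in the main test. Deviations of γd and γm+d correlated at 0.019 (−0.078 to 0.257 over 21 pairs of driver lines, 3 of them over 0.1), and a replicate block gave 62 higher and 136 lower genes, with all of the 28 and 95 kept.

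The share of genes at 0 in both γd libraries was 2.01% at a minimum of 10 TPM in γm+d, 0.247% at 50 TPM and 0.0741% at 100 TPM.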
